A study of Mus musculus with 4 samples.

Results

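Glycolysis and the control of pyruvate use were examined through 10 enzyme genes in gonadal WAT, the white fat pad beside the testis and epididymis of male mice. The genes are Hk2, Pfkl, Pfkp, Pfkfb3, Pgk1, Pkm, Ldha, Pdk1, Pdk2 and Pdk4. They were chosen with earlier results of these data known. By gene symbol, all 10 were found among the 20239 named probe sets of the array, out of 21225 in all. Male NMRI mice, 48 days old, had received either FD (18% fat) for 8 days from the age of 40 days or stayed on ND (3.3% fat). From 3 mice on either diet the RNA was combined into 1 pool, which was run on 2 arrays, so duplicate arrays repeat only steps after pooling. Both groups shared strain, sex and age, and the spread between mice was not measured. No test of the diets could therefore be made, and precision is limited by having 4 arrays. The diets came from different manufacturers, so that fat content and other ingredients cannot be told apart.

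Glycolysis splits glucose into pyruvate in the cytosol. Its pace is set mainly at hexokinase, phosphofructokinase and pyruvate kinase. Pyruvate is then either reduced to lactate by lactate dehydrogenase or burned after the mitochondrial pyruvate dehydrogenase complex has turned it into acetyl-CoA. The pyruvate dehydrogenase kinases (PDKs) phosphorylate and thereby switch off that complex. In white fat, glycolysis also supplies the glycerol backbone of triglycerides, and fat cells are known to release lactate. Several of these genes are textbook targets of the hypoxia-inducible factor HIF, and Pdk4 is a textbook target of the fatty acid receptors of the PPAR family and of FOXO factors.

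Values are log2 expression values, and a difference is the FD mean minus the ND mean on that scale. A gene counts as called, higher or lower, if the difference reached 1.5-fold (0.58 in log2), the FD and ND arrays did not overlap and the 4 arrays averaged 6 or more. That average was reached by 18211 probe sets, of which 242 (1.33%) were called higher in FD and 780 (4.28%) lower. With each array set relative to the mean of 15 adipocyte markers, these counts were 114 and 1144, and relative to their median they were 72 and 1660. The duplicates correlated with r = 0.998 in FD and r = 0.996 in ND across probe sets, and these are no independent replicates. Epididymal markers stood apart between the pools, with 9 of 11 measured genes called lower in FD. Of 10 liver markers, 8 were called higher in FD.

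All 10 enzyme genes passed the level of 6, and none was called in either direction. Within that limit they fell into 3 sets. For Pfkl, Pfkp, Pfkfb3, Ldha and Pdk4, both FD arrays lay above both ND arrays. For Pdk1 and Pdk2, both FD arrays lay below both ND arrays. The arrays of the diets overlapped for Hk2, Pgk1 and Pkm. Of all probe sets tested, 36.3% had both FD arrays above and 27.2% had both FD arrays below the ND arrays, 63.5% together, so that the 7 of 10 genes without overlap lie near the background. The median difference of the 10 genes was 0.29, against 0.03 over all probe sets tested, and 7 of 10 differences were above 0, against 56.5% of all probe sets. The 7 include Pgk1 and Pkm, whose arrays overlapped and whose sign changed when an ND array was left out. Because the 10 genes were chosen with earlier results of these data known, these contrasts with all probe sets are description only. Relative to the median of the adipocyte markers, the FD and ND arrays overlapped for Pfkfb3 and Pdk4. The positive differences of Pfkl, Pfkp, Pfkfb3, Ldha and Pdk4 were then smaller. They were 0.13 for Pfkl, 0.11 for Pfkp, 0.04 for Pfkfb3, 0.06 for Ldha and 0.01 for Pdk4. Relative to the mean of these markers they were 0.24, 0.23, 0.15, 0.18 and 0.13, in the same order. Both scalings shift all probe sets of an array alike. The median over all probe sets tested was then -0.24 and -0.12, against 0.025 and 0.14 for the 10 genes. Fewer cells of a type and less RNA per cell cannot be told apart in such bulk RNA.

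**Figure D1:**
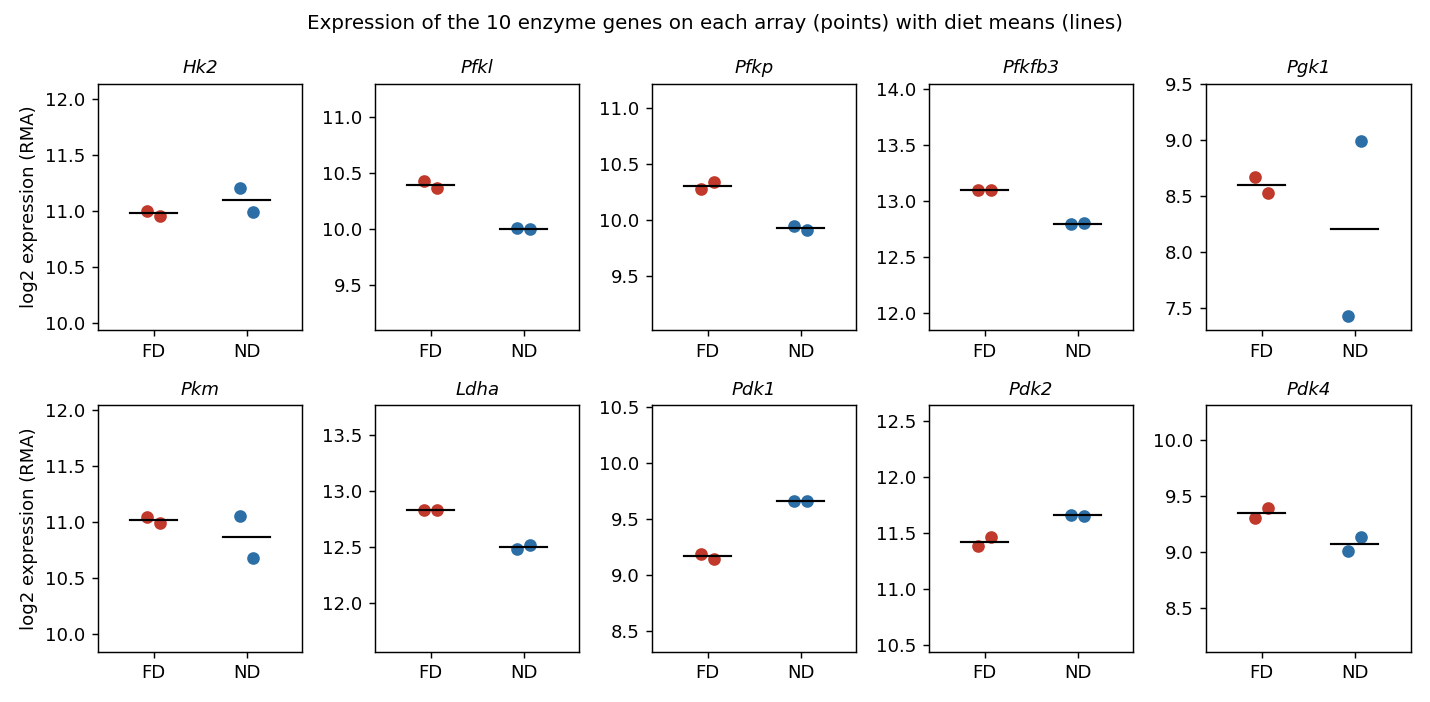
Log2 expression of each of the 10 genes (vertical axis, spanning 2.2 log2 units in every panel) on the 2 FD arrays and the 2 ND arrays. Points are arrays and lines are means. The FD and ND points part for 7 genes and overlap for Hk2, Pgk1 and Pkm, where the ND duplicates lie far apart for Pgk1.

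The DNA upstream of the genes is shown for Pfkl and Ldha, whose FD arrays lay above the ND arrays, and for Pdk1 and Pdk4, a pair of kinases of the same complex with differences of opposite sign. Each sequence is the 250 bases before the transcription start in RefSeq (GRCm38.p6), 5′ to 3′ on the gene's strand, taken at the start farthest upstream in that table where it lists several. All 10 genes were matched in it. Capitals mark ACGTG and GCGTG on either strand, the core letters of HIF sites. The windows are chr10:78009808-78010057 (minus strand) for Pfkl, chr7:46845554-46845803 (plus strand) for Ldha, chr2:71872974-71873223 (plus strand) for Pdk1 and chr6:5496279-5496528 (minus strand) for Pdk4.
Pfkl: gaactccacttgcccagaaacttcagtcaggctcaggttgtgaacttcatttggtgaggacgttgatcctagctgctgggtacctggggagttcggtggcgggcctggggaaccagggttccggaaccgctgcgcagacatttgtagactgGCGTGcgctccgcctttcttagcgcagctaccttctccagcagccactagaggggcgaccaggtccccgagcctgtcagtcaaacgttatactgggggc
Ldha: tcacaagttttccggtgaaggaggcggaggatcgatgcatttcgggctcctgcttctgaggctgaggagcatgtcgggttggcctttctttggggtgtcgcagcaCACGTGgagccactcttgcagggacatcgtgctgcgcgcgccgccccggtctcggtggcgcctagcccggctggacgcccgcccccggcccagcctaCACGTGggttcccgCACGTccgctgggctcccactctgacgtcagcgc
Pdk1: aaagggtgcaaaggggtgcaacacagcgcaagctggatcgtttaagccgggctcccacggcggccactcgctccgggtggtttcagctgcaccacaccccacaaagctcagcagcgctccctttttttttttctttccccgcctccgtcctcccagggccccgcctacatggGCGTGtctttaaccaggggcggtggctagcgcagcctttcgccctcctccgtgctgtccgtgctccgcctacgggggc
Pdk4: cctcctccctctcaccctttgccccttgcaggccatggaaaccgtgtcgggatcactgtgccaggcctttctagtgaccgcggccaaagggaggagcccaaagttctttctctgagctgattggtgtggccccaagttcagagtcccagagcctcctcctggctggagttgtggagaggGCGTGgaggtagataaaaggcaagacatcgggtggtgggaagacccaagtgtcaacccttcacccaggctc

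ACGTG on either strand was found in 5 of the 10 upstream windows, those of Hk2, Pfkfb3, Pgk1, Ldha and Pdk2, and in 16.6% of 32851 RefSeq windows of the same length. GCGTG was found in 4, those of Pfkl, Pfkp, Pdk1 and Pdk4, and in 28.2% of all windows. The E-box CACGTG, which contains ACGTG on both strands, occurred in Ldha at 145 and 48 bases before the start and in Pdk2 at 126 bases before it, and in 6.02% of all windows. The GC box GGGCGG was found in 7 of 10 windows and in 32.7% of all. The FOXO letters TGTTTAC were in none of the 10 and in 3.17% of all windows. ACGTG was present in 2 of the 5 genes with both FD arrays above and in 1 of the 2 with both FD arrays below, and GCGTG in 3 of the 5 and 1 of the 2. The 32851 windows include every start of a gene with several, while each of the 10 genes has 1 window. They were not matched for base composition or expression, so the shares are no measure of enrichment. A match is a run of letters and not a measured binding site.

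At the entry step, Hk2, which encodes the insulin-regulated hexokinase of fat and muscle that traps glucose as glucose phosphate, was at 10.99 and 10.95 on the FD arrays and at 11.20 and 10.99 on the ND arrays. The lower ND array almost coincided with the FD arrays, and the difference of -0.12 lay within the ND duplicates, which differed by 0.22. Of the other hexokinase genes, Hk1, the widely expressed isoform, was at 9.87 and 9.83 in FD and at 9.74 and 9.68 in ND. Hk3 had a difference of 0.28 and the hexokinase domain gene Hkdc1 one of 0.09, and neither was called.

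Phosphofructokinase catalyses the committed step of glycolysis. Pfkl, its liver-type subunit, was at 10.43 and 10.37 in FD and at 10.007 and 9.999 in ND. Pfkp, its platelet-type subunit, was at 10.28 and 10.33 in FD and at 9.94 and 9.91 in ND. Both genes had FD arrays that parted clearly from the ND arrays, by 0.36 for Pfkl and 0.34 for Pfkp. Their differences were 0.39 (1.31-fold) for Pfkl and 0.38 for Pfkp. Of the probe sets tested, 4.20% had a positive difference at least as large as that of Pfkl and 4.79% one at least as large as that of Pfkp. Pfkm, the muscle-type subunit, had a smaller difference of 0.20, also with both FD arrays above. Within each array, the log2 ratio of Pfkl to Pfkm was 0.20 higher in FD than in ND (0.18 to 0.22 over the 4 pairs of an FD and an ND array), while that of Pfkl to Pfkp differed by 0.01 (-0.05 to 0.08). Such a ratio is not changed by a constant shift of a whole array. Its range over array pairs shows only the spread of duplicate arrays. The part of the tissue mix of the pools in these ratios and those given below was not tested.

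Pfkfb3 encodes a bifunctional enzyme that makes the sugar bisphosphate by which phosphofructokinase is activated. It was at 13.10 on both FD arrays and at 12.79 and 12.80 on the ND arrays. The duplicates differed by 0.0027 in FD and 0.0074 in ND, and the diets parted by 0.30. The difference of 0.30 (1.24-fold) was thus larger than the array spread but under 1.5-fold. Positive differences at least as large were found in 8.42% of the probe sets tested. Its paralog Pfkfb2, the heart-type enzyme, stood at 9.72 and 9.69 in FD and at 10.34 and 10.28 in ND. Pfkfb2 was called lower with a difference of -0.60, close to the threshold, and the call was lost without FD array 2 (-0.58), without ND array 1 (-0.57) or with the arrays centred on their medians (-0.55). The log2 ratio of Pfkfb3 to Pfkfb2 was 0.90 higher in FD (0.85 to 0.95 over array pairs). Pfkfb4 had a difference of -0.17 with overlapping arrays.

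**Figure D2:**
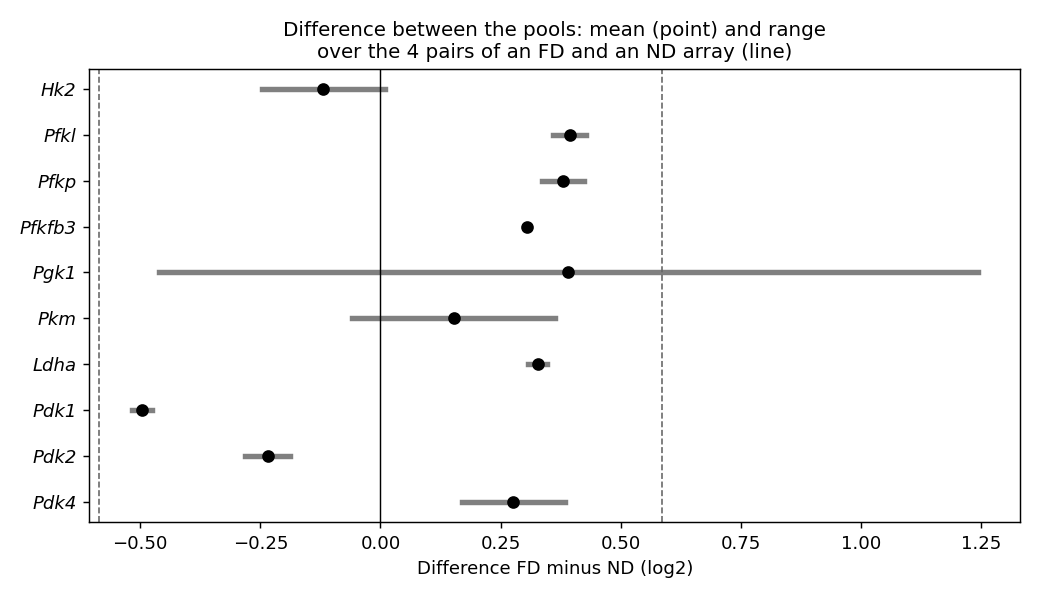
Difference between the FD and ND pools in log2 units (horizontal axis) for each of the 10 genes. Points are means, lines span the 4 pairs of an FD and an ND array, and dashed lines mark 1.5-fold. No mean reaches the dashed lines, and the line of Pgk1 runs from -0.46 to 1.24.

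Later in the pathway, Pgk1, the phosphoglycerate kinase that yields the first ATP, was at 8.67 and 8.53 in FD and at 7.43 and 8.99 in ND. The ND arrays, which carry the same RNA, lay on both sides of the FD arrays. Their gap of 1.57 was the largest ND duplicate gap of all 18211 probe sets tested, against a median gap of 0.10. The mean difference of 0.39 therefore has no settled direction. Leaving out ND array 1 gave -0.39. Leaving out ND array 2 gave 1.17, and the gene then passed the rule for higher. The RefSeq table lists pseudogenes of Pgk1 and of Ldha, and whether their transcripts reach these probes was not tested.

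Pkm, the pyruvate kinase of most tissues outside the liver, was at 11.04 and 10.99 in FD and at 11.05 and 10.68 in ND. The arrays overlapped, and an ND gap as large as its 0.37 was found in 3.41% of probe sets. Its difference was 0.15, and it was -0.03 without ND array 2 and -0.11 relative to the median of the adipocyte markers. The array has 1 probe set for the gene, so its splice forms were not separated. Pklr, the pyruvate kinase of liver and red blood cells, was at 7.43 and 7.55 in FD and at 8.35 and 8.86 in ND. It was called lower with a difference of -1.12 (2.17-fold), the largest difference among the glycolytic enzymes listed here. The log2 ratio of Pkm to Pklr was 1.27 higher in FD (0.75 to 1.79 over array pairs).

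Ldha, the lactate dehydrogenase subunit that favours lactate formation, was at 12.82 on both FD arrays and at 12.48 and 12.52 on the ND arrays. The FD duplicates were almost identical, and the diets parted by 0.31. The difference of 0.33 (1.25-fold) was reached by 7.10% of probe sets in the same direction. Ldhb, the subunit that favours lactate use, had a difference of -0.11 with overlapping arrays. Ldhc, the subunit of sperm cells, was at 6.63 on both FD arrays and at 6.80 and 6.67 in ND and was not called. The log2 ratio of Ldha to Ldhb was thus 0.44 higher in FD (0.25 to 0.62). Ldhd, which encodes the mitochondrial D-lactate dehydrogenase, was called lower at -0.78, with 9.70 and 9.69 in FD and 10.39 and 10.55 in ND.

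The PDK genes split by isoform. Pdk1, a HIF-responsive kinase, was at 9.19 and 9.15 in FD and at 9.67 on both ND arrays. Its difference of -0.50 was the largest of the 10 genes in either direction (1.41-fold lower in FD), and 5.33% of probe sets had a negative difference at least as large. The diets parted by 0.48, while the ND duplicates differed by 0.0018. Relative to the mean of the adipocyte markers its difference was -0.65 and it passed the rule for lower.

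Pdk2, the most widely expressed kinase, was at 11.38 and 11.47 in FD and at 11.67 and 11.65 in ND. Both FD arrays were lower by at least 0.19, and the difference was -0.23. Pdk3 was called lower, at 9.48 and 9.32 in FD and at 9.97 and 10.31 in ND, with a difference of -0.74 that fell under the threshold without ND array 2 (-0.56). Pdk4, the kinase induced by fasting and fatty acids, was at 9.31 and 9.39 in FD and at 9.01 and 9.14 in ND. Its FD arrays were the higher ones, with the nearest arrays of the diets 0.17 apart. The difference was 0.28 (1.21-fold), and 10.3% of probe sets had a positive one as large. It was 0.01 relative to the median of the adipocyte markers and 0.13 relative to their mean. The same kind of ratio also differed between the PDK isoforms. The log2 ratio of Pdk4 to Pdk1 was 0.77 higher in FD (0.65 to 0.90 over array pairs), that to Pdk2 0.51 higher (0.44 to 0.58) and that to Pdk3 1.01 higher (0.78 to 1.24).

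**Figure D3:**
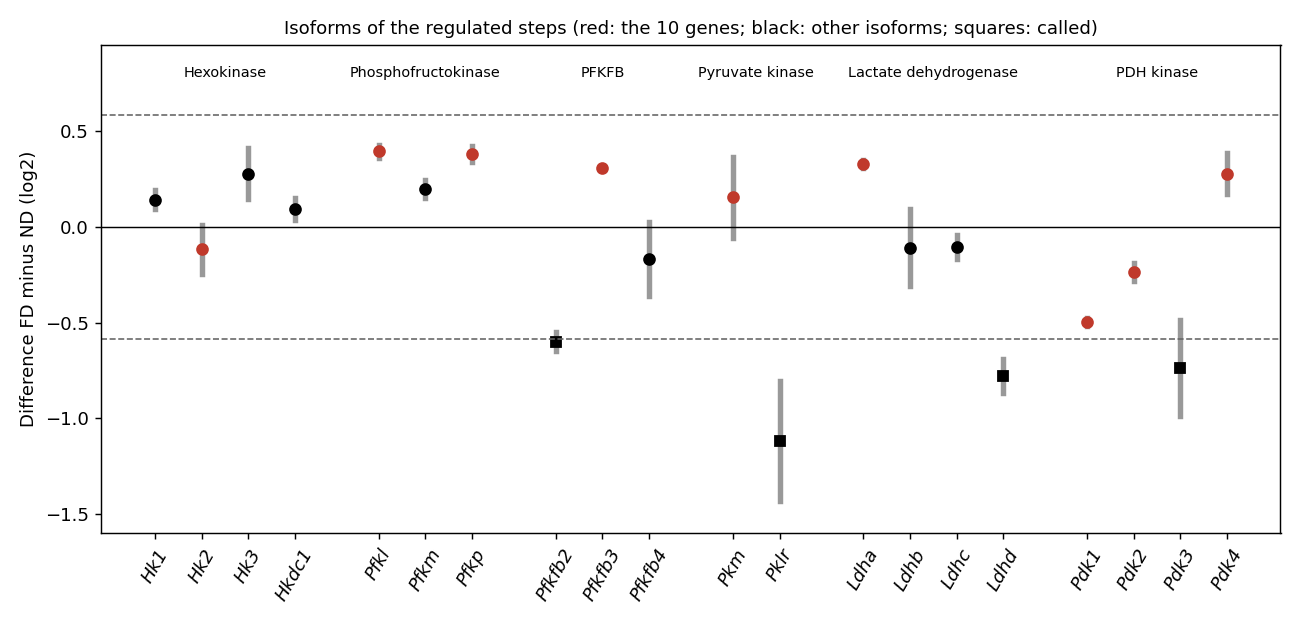
Difference between FD and ND in log2 units (vertical axis) for genes in 6 enzyme groups. Ldhd, the mitochondrial D-lactate dehydrogenase, is drawn beside Ldha, Ldhb and Ldhc but is not an isoform of them. Points or squares are means, lines span the 4 array pairs, red marks the 10 genes, squares mark called genes and dashed lines 1.5-fold. Pfkfb2, Pklr, Ldhd and Pdk3 lie below the lower dashed line, and Pdk4 lies above 0 while Pdk1, Pdk2 and Pdk3 lie below it.

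The rest of the pathway was read from gene lists. The counts below stand beside the 1.33% of all probe sets tested that were called higher and the 4.28% called lower. Of 20 genes measured on the list of other glycolytic enzymes, none was called higher and 3 were called lower. These were Pfkfb2, Pklr and Ldhd, and the list median was 0.02. Ldhd, the D-lactate dehydrogenase, stands on this list but is not itself a step of glycolysis. On the same arrays the epididymal markers averaged 6.83 and 6.91 in FD and 10.35 and 10.37 in ND, and their part in these lower calls, and in that of Pdk3, was not tested. The housekeeping steps had small values, with differences of 0.08 for the aldolase gene Aldoa and 0.12 for the triose phosphate isomerase gene Tpi1. Bpgm, which makes bisphosphoglycerate, and the aldolase gene Aldoc had differences of -0.45 and -0.42 and were not called. The sperm gene Gapdhs had a difference of 0.28. Pgk2, the phosphoglycerate kinase of sperm cells, stayed under a mean of 6. Gpi1, Pfkfb1, Gapdh, Pgam1 and Eno1 were not analysed here.

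Among 19 other genes of pyruvate control, Pdk3 was called lower and none was called higher, with a median of 0.07. The subunits of the dehydrogenase complex that the PDKs act on had differences of 0.17 for Pdha1, 0.05 for Pdhb and 0.13 for Dlat. The opposing phosphatase genes Pdp1 and Pdp2 had differences of 0.10 and 0.11. Pcx, the pyruvate carboxylase, had a difference of 0.21, with 12.87 and 12.85 in FD and 12.64 and 12.67 in ND. The malic enzyme gene Me1, which returns malate to pyruvate and yields NADPH, was at 0.50 and was not called, but passed the rule without ND array 1 (0.64). The alanine aminotransferase gene Gpt had a difference of 0.33 and the mitochondrial malic enzyme gene Me3 one of 0.20. The lactate carrier genes Slc16a1 and Slc16a3 were at 0.07 and -0.13.

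In glyceroneogenesis and glycerol phosphate supply, which build the triglyceride backbone, Gpd1 was called higher and G6pc lower, out of 10 genes with a median of 0.15. Gpd1, the enzyme that draws glycerol phosphate from glycolysis, was at 12.85 and 12.87 in FD and at 12.21 and 12.28 in ND, a difference of 0.61. It was not called without ND array 1 (0.58) or relative to the adipocyte markers (0.35 by their median and 0.46 by their mean). Pck1, the key enzyme of glyceroneogenesis, had a difference of 0.40 and the glycerol channel gene Aqp7 one of 0.42, and neither was called. Gpd2, the mitochondrial partner of Gpd1, was at 0.29 and the fructose bisphosphatase gene Fbp2 at -0.29. G6pc, the glucose phosphatase of liver and kidney, was at 6.46 and 6.67 in FD and at 7.15 and 7.59 in ND, with a difference of -0.80, and was not called with the minimum average raised to 7. Liver markers averaged 9.57 and 9.65 in FD and 7.91 and 7.98 in ND. This average and Gys2 were higher in FD, while G6pc was lower. The part of liver RNA in the values of both genes was not tested.

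Of 17 genes of glycogen metabolism, with a median of 0.08, Gys2 alone was called. Gys2, the glycogen synthase of liver and fat, was at 8.89 and 9.02 in FD and at 8.02 and 7.94 in ND, a difference of 0.97 (1.96-fold). Pygl, a glycogen phosphorylase, had a difference of 0.37, the phosphoglucomutase gene Pgm1 one of 0.24, and the glycogen-targeting phosphatase subunits Ppp1r3c and Ppp1r3d ones of -0.28 and 0.20. Of 7 genes of the pentose phosphate pathway, H6pd of the endoplasmic reticulum was called higher at 0.59, and the list median was 0.07. H6pd was not called without FD array 1 (0.58), under cyclic loess (0.58) or relative to the adipocyte markers (0.32 by their median and 0.44 by their mean). The transketolase gene Tkt was at 0.16 and the gluconate dehydrogenase gene Pgd at 0.10. The tricarboxylic acid cycle, which receives the acetyl-CoA, had no called gene of 18 and a median of 0.07, from -0.08 to 0.29, with Idh3a at 0.29, Ogdh at 0.22 and Sdhc at 0.20.

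**Figure D4:**
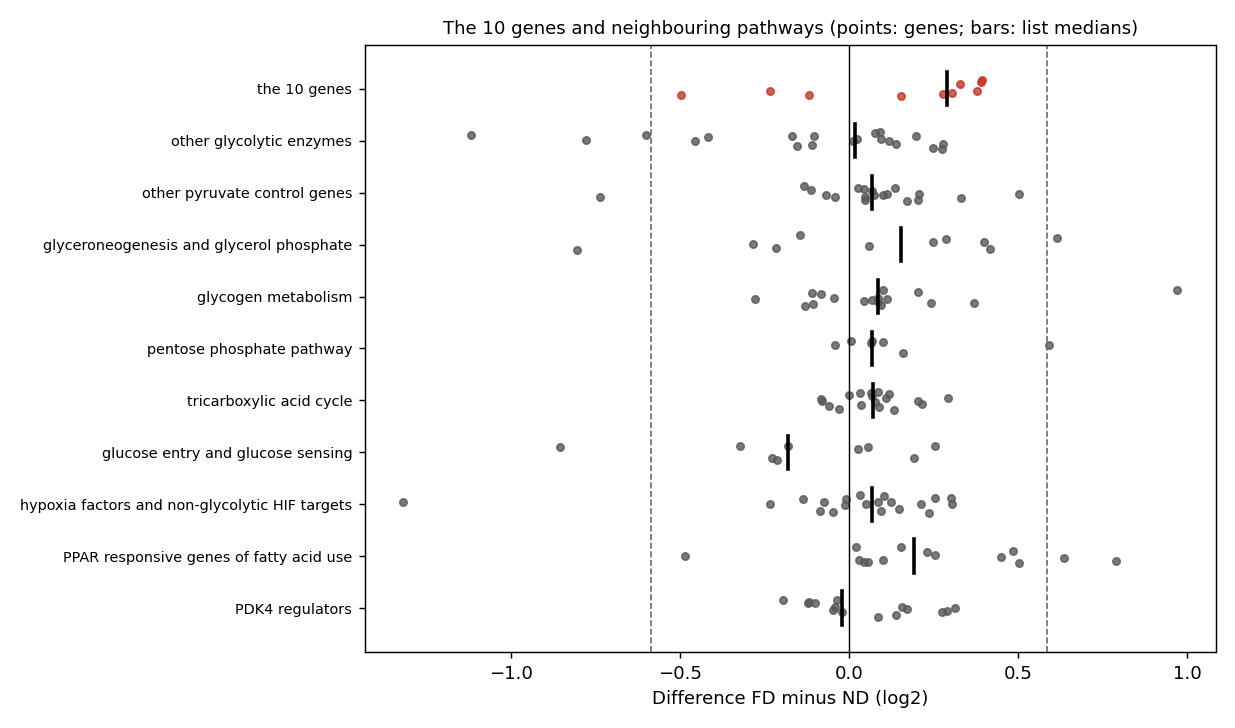
Differences between FD and ND in log2 units (horizontal axis) of the 10 genes (red) and of 10 neighbouring gene lists (grey). Points are genes with a mean log2 value of at least 6, bars are list medians and dashed lines mark 1.5-fold. The bar of the 10 genes stands at 0.29, while the other medians lie between -0.18 and 0.19. The 10 genes and the lists were chosen with earlier results of these data known. Marker lists are not drawn, and their medians ran from -4.85 for epididymal to 1.57 for liver markers.

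For glucose entry and sensing, the median of 9 genes was -0.18. Slc2a3, a high-affinity glucose transporter, was called lower at -0.86, with 9.88 on both FD arrays and 10.77 and 10.71 on the ND arrays. The transporter gene Slc2a1 was at -0.32 and was not called, the insulin-dependent Slc2a4 was at 0.03 and Txnip, a glucose-induced inhibitor of glucose uptake, at 0.25. The glucose-sensing factor genes Mlxip and Mlx were at -0.23 and -0.21. Of 20 hypoxia factors and HIF targets outside glycolysis, with a median of 0.07, Egln3 alone was called, and lower. Egln3, an oxygen-sensing hydroxylase that marks HIF for degradation and is itself a HIF target, was at 7.59 and 7.61 in FD and at 8.86 and 8.97 in ND, a difference of -1.32. Hif1a had a difference of 0.03, and the HIF targets Vegfa, Ndrg1, P4ha2 and Ddit4 had differences of 0.24, 0.31, 0.30 and 0.25. Of the 20 genes, 10 had both FD arrays above and 4 had both FD arrays below the ND arrays. These shares were 36.3% and 27.2% over all probe sets tested. The part of epididymal tissue in the calls of Slc2a3 and Egln3 was not tested.

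Of 14 PPAR-responsive genes of fatty acid use, Ucp3 and Cpt1b were called higher and none lower, with a median of 0.19. Ucp3, an uncoupling protein, was at 8.91 and 8.82 in FD and at 8.12 and 8.02 in ND, a difference of 0.79 that was 0.52 and not called relative to the median of the adipocyte markers. Cpt1b, the muscle-type carnitine palmitoyltransferase, was at 0.63. It was not called without FD array 1 (0.42), under cyclic loess (0.58) or relative to the adipocyte markers (0.37 by their median and 0.48 by their mean). Brown adipocyte markers averaged 8.04 and 8.02 in FD and 7.36 and 7.54 in ND, and their part in both calls was not tested. Cpt1a, Plin2 and Angptl4 had differences of 0.50, 0.49 and 0.45 and were not called, although Cpt1a passed the rule without ND array 2 (0.60). Acot1, an acyl-CoA thioesterase, was at -0.49 and passed the rule for lower without ND array 1 (-0.59). Among 15 genes of factors that act on Pdk4, none was called and the median was -0.02. The largest were Ppara at 0.31, the insulin receptor substrate gene Irs2 at 0.29, Akt2 at 0.28 and Ppard at -0.20, while Foxo1 was at -0.04. Over the 10 lists, 5 of 149 measured genes other than the 10 were called higher and 7 lower. Of all probe sets tested, 1.33% were called higher and 4.28% lower.

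**Figure D5:**
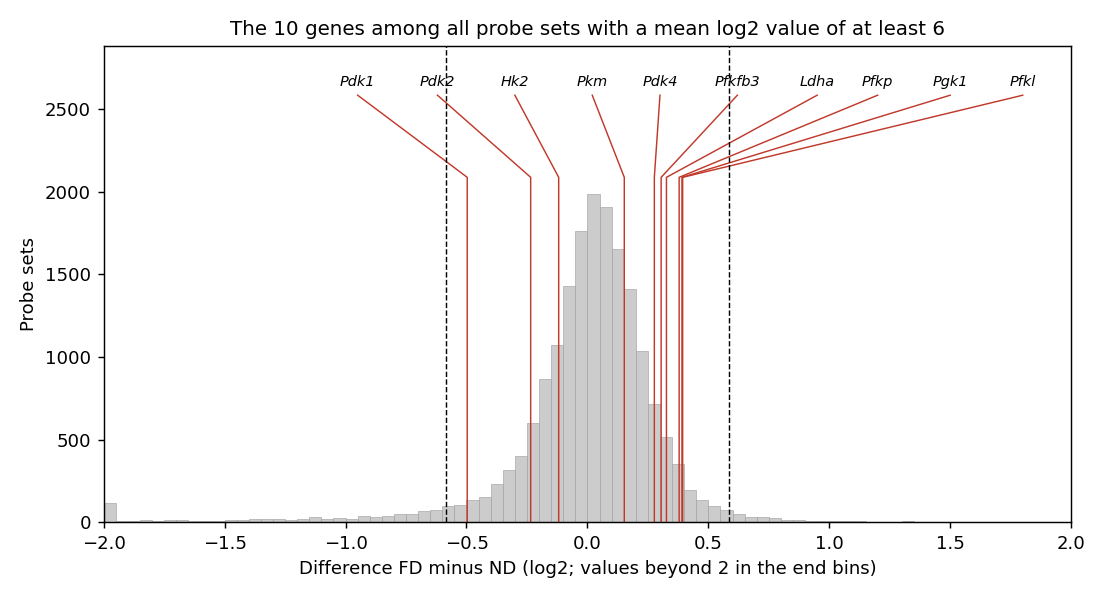
Number of probe sets (vertical axis) by difference between FD and ND in log2 units (horizontal axis) for the 18211 probe sets at a mean of at least 6, with red lines at the 10 genes and dashed lines at 1.5-fold. All 10 genes lie between the dashed lines, and the cluster from Pdk4 at 0.28 to Pfkl at 0.39 lies on the upper flank.

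Markers of other cells also differed between the pools. The adipocyte markers were strongly detected, with a mean log2 value of 12.90 and 12.87 in FD and of 12.69 and 12.78 in ND, and none of 15 was called (median 0.14). Among the epididymal genes, Adam7 was at 5.48 and 5.61 in FD and at 12.65 and 12.62 in ND, while Gpx5 was under 6 over the 4 arrays. Macrophage markers had a median of 0.36 (2 of 12 called higher), endothelial markers of 0.34 (1 of 10), fibroblast and matrix markers of 0.55 (5 of 10), mesothelial markers of 0.63 (4 of 8 higher and 2 lower) and lymphocyte markers of 0.22 (1 of 8). Brown adipocyte markers had a median of 0.55, with 5 of 10 called higher. Among them was Ucp1, at 8.57 and 8.76 in FD and at 6.57 and 6.47 in ND. For 2 of the 10, both FD arrays lay below both ND arrays, the lowest being Slc27a2 with a difference of -0.50. Liver markers had a median of 1.57. Skeletal muscle markers had a median of 0.03 (2 of 12 lower), smooth muscle markers of -0.16 (0 of 6), erythroid markers of -0.30 (0 of 3) and spermatid markers of 0.07 (1 of 8 lower, with Akap4 and Pgk2 under 6). The part of these cells in the differences of the 10 genes was not tested. Diet and a different tissue mix of the pools cannot be told apart here.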

How the data were processed

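Pooled gonadal WAT RNA, 3 NMRI males per diet, had been run in duplicate on Affymetrix mouse gene arrays. The log2 values deposited by the authors come from RMA (a background correction with normalization and probe set summary), as the submitters' processing notes name it. Software, version and genome build: not given in the sources used here. No further normalization was applied. Gene names come from the platform annotation, which gives 20239 of 21225 probe sets 1 symbol and leaves 986 unnamed here. Arrays have no sequencing depth.

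The 10 genes and all lists (10 of pathways, 13 of markers) were chosen with earlier results of these data known, and the duplicate arrays were counted as 1 replicate. A size rule stood in place of a test (1.5-fold, no overlap, mean of at least 6). The rule was tested on simulated data with equal noise for all probe sets. Such data cannot show how the rule deals with spread between mice or pools. The text names all 10 genes, their paralogs in the lists, all called pathway genes and up to 4 others per pathway list with the largest differences. Marker lists, where the genes with the largest and smallest differences were to be named, are given mostly as counts. Further genes (Aldoa, Tpi1, Slc2a4, Hif1a, Foxo1, Adam7, Ucp1 and subunits, phosphatases and carriers of pyruvate) were named for their role, with values known. Alternatives were other filters, folds and scalings, and leaving out each array. Python 3.11.15 (pandas 2.3.3) and limma 3.58.1 in R 4.3.3, for cyclic loess only, were used.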

Additional observations from a re-analysis of the deposited data

How the results depend on the processing

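No paired analysis was possible because the result comes from no test, with 1 RNA pool per diet. None of the 10 genes was called under no filter, a filter at 7, 2-fold, median centring, cyclic loess or scaling to Actb and B2m. At 1.3-fold, 2 were higher (Pfkl, Pfkp) and 1 lower (Pdk1), list genes called higher were 11, and 869 and 1333 of all probe sets were higher and lower. At 2-fold, 0 list genes were higher and 2 lower, and 41 and 386 of all. With median centring the median difference of the 10 genes was 0.34, and with cyclic loess 3 list genes were higher. Relative to the median of the adipocyte markers, which shifted all probe sets to a median of -0.24, the 10 genes had a median of 0.025 and 1 called lower (Pdk1), 1 list gene was higher and 11 lower, and 72 and 1660 of all probe sets were higher and lower. Relative to the mean of these markers, chosen after seeing the data (median of all probe sets -0.12), the 10 genes had a median of 0.14 and 1 called lower (Pdk1), 2 list genes were higher, and 114 of all probe sets were higher. Without 1 array, the 10 genes had 0 to 1 called higher (Pgk1 without ND array 2) and medians of 0.26 to 0.33, and 3 (without FD array 1) to 6 (without ND array 2) list genes were higher. Under these scalings and single omissions, the sign of the difference changed for Pgk1 and Pkm among the 10 genes. All differences compare 1 pool with 1 pool, with no estimate of the spread between mice.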
